A study of Drosophila melanogaster with 2 samples.

Results

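The genes of the proteasome, the large protease that destroys proteins tagged with ubiquitin, were followed in poly(A) RNA of the fly posterior midgut. They were found by symbol in the deposited transcript table, whose older names include Pros25, Pros54, Mov34 and Tbp-1. Of 13816 loci, 42 were members. RefSeq symbols, matched by NCBI gene ID, are used below. The midguts came from wild type Oregon R females aged 5 or 45 days. The labels give 3 biological replicates for each age. The midguts were pooled before extraction, so each library averages over many flies of 1 strain and sex, and p-values measure the spread between pools. The table names its sets of 3 libraries treatment and control, without saying which age each set holds, and nothing else that was read says so. Should control be the 5-day set, higher in treatment would mean higher at 45 days. In whole midguts, a change in the number of cells of a type cannot be told apart from a change in RNA per cell.

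The proteasome consists of a barrel, the 20S core particle, capped by the 19S regulatory particle. The core is built of stacked alpha and beta rings, and of its beta subunits beta1, beta2 and beta5 cut peptide bonds, with caspase-like, trypsin-like and chymotrypsin-like preference. The regulatory particle has a base, whose ring of Rpt ATPases unfolds substrates and feeds them into the core, and a lid, in which Rpn11 removes the ubiquitin chain. In flies as in other animals the subunits are needed in every cell, and several have extra copies whose transcripts are known mainly from testis.

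Of the 42 loci, 29 were standard subunit genes with at least 1029 reads in every library, 12 of the core and 17 of the regulatory particle. Another 12 were paralogues with T or R in their name, and 1 was a merged locus, Prosalpha1/CG30382. The merged locus joins Prosalpha1, an alpha ring subunit, with CG30382, which RefSeq names Prosalpha1R. It was listed at 0 reads in all 6 libraries, and nothing is drawn from that value. Libraries held 9581961 to 18001951 reads over loci, and standard subunits took 0.502% to 0.524% of them in treatment and 0.349% to 0.361% in control. TMM scaling, which sets libraries to a common level over most genes, multiplied library sizes by 1.06 to 1.09 in treatment and 0.922 to 0.940 in control, so the scaled levels below differ less than these shares. Mitochondrial transcripts took 7.66% to 10.1% of reads in treatment and 6.32% to 7.03% in control, and the part of this difference in the results was not tested.

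All 29 standard subunit genes rose in treatment, and none fell, although the call of Rpn5 depended on the tool and on single libraries. The rises were small, from 1.09-fold to 1.42-fold, with a median log2 fold change of 0.33 beside 0.01 for all genes tested. Of the 29, 23 were at least 1.2-fold higher and 8 at least 1.3-fold. Calls are those of edgeR's quasi-likelihood test at an adjusted p of 0.05, which called 25.0% of 8137 tested genes higher and 24.1% lower, 49.2% in all. Among the 599 genes with a mean level in the range of these subunits, 105 to 207 CPM (reads of a gene relative to the TMM-scaled library total), 40.7% were called higher and 34.7% lower. Library values did not overlap for any of the 29, with all 3 treatment values above all 3 control values. This arrangement held for 28.4% of all genes tested, and the reverse for 26.9%. Among the 599 genes in the same range of levels it held for 246, and the reverse for 209. In the authors' deposited table the 29 genes all have positive log2 fold changes, from 0.12 to 0.49 with a median of 0.33. That column's direction is not described, and its sign was that of treatment over control for each of them.

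**Figure D1:**
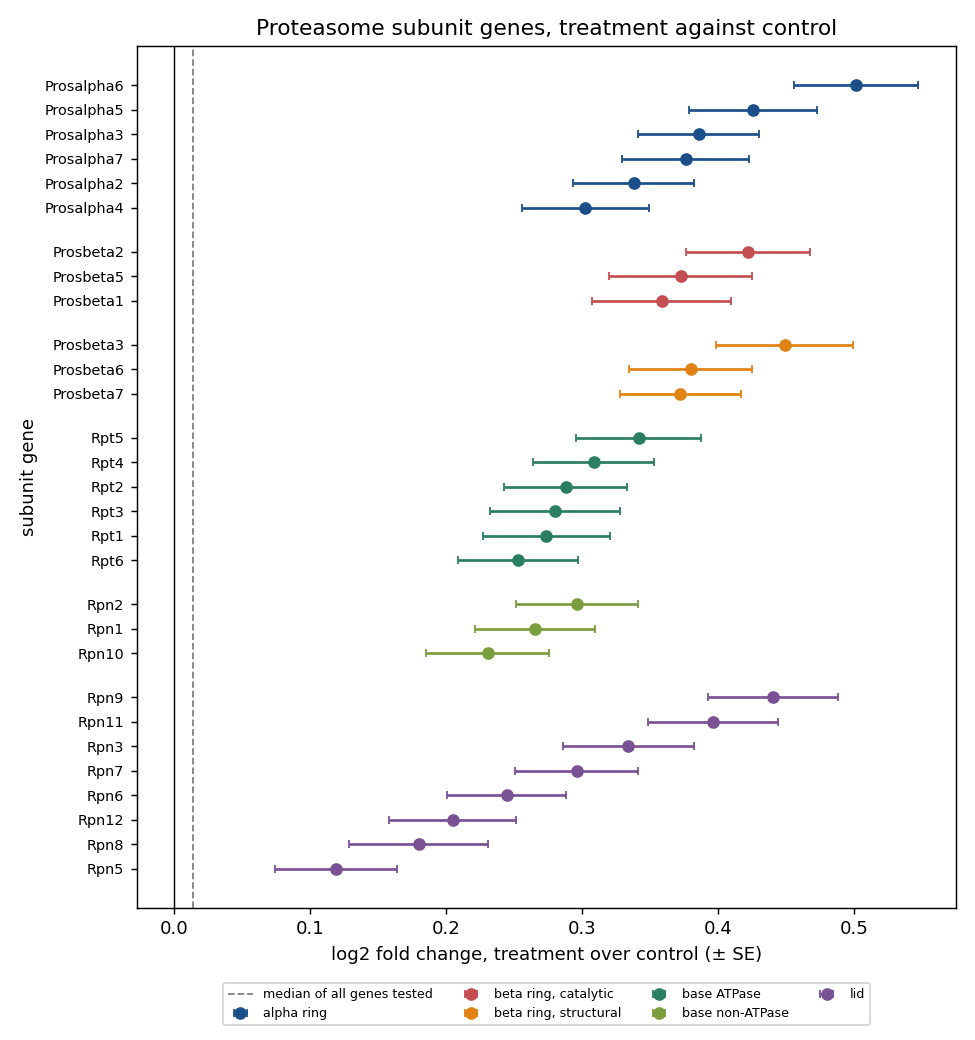
Log2 fold change of treatment over control for each of the 29 standard subunit genes, from edgeR, with bars of 1 SE and colours for the part of the proteasome. All points lie right of 0, from 0.12 for Rpn5 to 0.50 for Prosalpha6, and right of the dashed median of all genes tested.

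In the alpha ring, which gates the entry to the core, all 6 measured genes rose, with a median log2 fold change of 0.38. Prosalpha6 (2L, 10221353 to 10222503, coordinates as deposited, build not named) had the largest rise of any subunit. Its treatment values were 191, 201 and 191 CPM and its control values 135, 144 and 133 CPM. The highest control library thus lay well under the lowest treatment library. The means were 194 ± 5.95 and 137 ± 5.91 CPM (SD, n = 3 each), a 1.42-fold difference (log2 0.50, SE 0.046; adjusted p = 6.78e-11).

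Prosalpha5 (2R, 13300269 to 13301274) was at 139, 151 and 140.0 CPM in treatment and 108, 105 and 107 CPM in control. Its control libraries lay close together, and its rise was 1.34-fold (adjusted p = 4.20e-09). Prosalpha4 (X, 16170305 to 16171621), at 134, 146 and 138 against 112, 113 and 112 CPM, had the smallest rise of the core (log2 0.30, SE 0.047; adjusted p = 2.07e-06). Between these lay Prosalpha2, Prosalpha7 and Prosalpha3, at log2 fold changes of 0.34, 0.38 and 0.39.

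The 3 catalytic genes of the beta ring rose to a like extent. Prosbeta2, the trypsin-like subunit (3L, 14993036 to 14994419), was at 199, 214 and 206 CPM in treatment and 155, 159 and 147 CPM in control. This was a 1.34-fold difference (log2 0.42, SE 0.045; adjusted p = 2.33e-09). Prosbeta5, the chymotrypsin-like subunit and the main target of proteasome inhibitors (2R, 6707486 to 6708685), was at 171, 204 and 184 against 147, 147 and 137 CPM. Its treatment libraries were the most spread of any standard subunit relative to their mean (coefficient of variation 8.85%), with replicate 2 highest, yet the lowest still exceeded every control value.

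Prosbeta5 rose 1.29-fold (adjusted p = 4.25e-07). Prosbeta1, the caspase-like subunit (2R, 11901309 to 11902285), was at 132, 149 and 132 against 108, 112 and 102 CPM (1.28-fold; adjusted p = 5.65e-07). For both, replicate 2 of the treatment set stood above the other two. The structural subunits of the ring, which hold no active site, rose as well. Prosbeta3 was at 0.45, Prosbeta6 at 0.38 and Prosbeta7 at 0.37 on the log2 scale. A further ring member, Prosbeta4, is listed under its CG number in the deposited table and so is no member by symbol. It was at 142 ± 2.54 against 112 ± 1.81 CPM (1.27-fold; adjusted p = 1.00e-07).

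**Figure D2:**
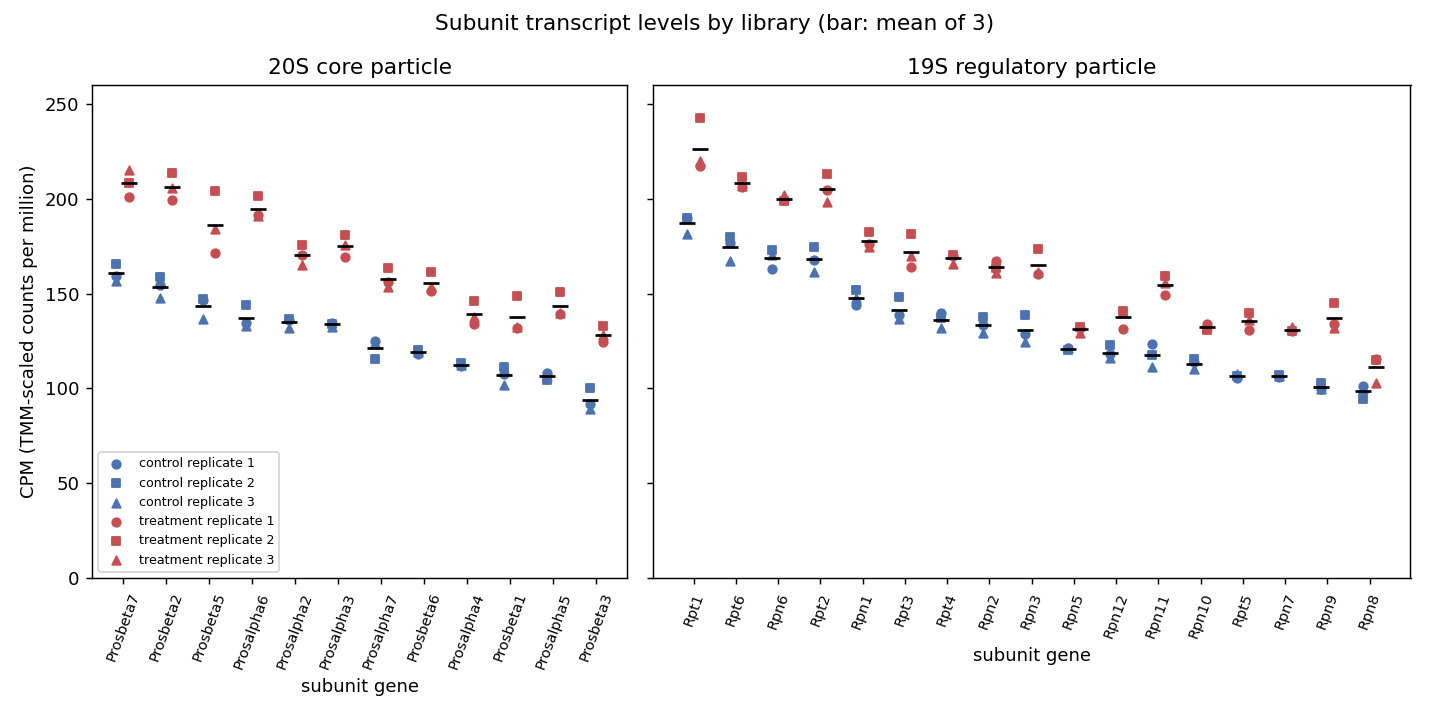
TMM-scaled CPM of each standard subunit gene in the 6 libraries, core particle left and regulatory particle right, ordered by control mean; symbols mark the replicate and black bars the mean of 3. Treatment points lie above control points in every gene, and replicate 2 is the highest treatment library for 23 of 29.

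All 6 ATPase genes of the base rose, within a narrow range of log2 fold changes from 0.25 to 0.34. Rpt5 (3R, 19578600 to 19580345) had the largest of them, with 131, 139.7 and 136 CPM in treatment and 106, 107 and 108 CPM in control (1.27-fold; adjusted p = 1.99e-07). Next came Rpt4 (0.31), Rpt2 (0.29), Rpt3 (0.28), Rpt1 (0.27) and Rpt6 (0.25). With standard errors of 0.044 to 0.048 each, neighbours in this order did not differ beyond their error. The non-ATPase genes of the base rose too. These are Rpn2 (0.30) and Rpn1 (0.27), the large scaffold proteins, and the ubiquitin receptor gene Rpn10 (0.23).

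The lid genes were the most varied, with all 8 higher and log2 fold changes from 0.12 to 0.44. Rpn9 (3R, 19557225 to 19558731), a structural subunit, had the largest rise of the regulatory particle. It was at 134, 145 and 132 CPM in treatment and 99.8, 103 and 100 CPM in control, which is 1.36-fold (log2 0.44, SE 0.048; adjusted p = 2.83e-09). The deubiquitinase gene Rpn11 (2L, 5058404 to 5059816) followed, with 149, 159 and 155 against 123, 118 and 111 CPM (1.32-fold; adjusted p = 2.33e-08). Both lie within the range of log2 fold changes seen for core subunits.

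At the other end stood Rpn5 (3R, 1615211 to 1617291), a structural lid subunit, at 132, 133 and 129 CPM in treatment and 122, 120.1 and 121 CPM in control. The sets did not overlap, but the difference was only 1.09-fold (log2 0.12, SE 0.045; adjusted p = 0.0277). DESeq2 gave Rpn5 an adjusted p of 0.0986. With edgeR its call was also lost without treatment replicate 1 (0.0863), 2 (0.0571) or 3 (0.0546) or control replicate 1 (0.0855) or 3 (0.0872). Rpn8, the catalytically inactive partner of Rpn11, was at 0.18 (SE 0.051; adjusted p = 0.004) and Rpn12 at 0.20. The other lid genes were Rpn6 (0.24), which clamps lid and core together, Rpn7 (0.30) and Rpn3 (0.33). Rpn13, a ubiquitin receptor listed under its CG number and no member by symbol, was at 159 ± 4.47 against 140.2 ± 7.13 CPM (1.13-fold; adjusted p = 0.00168).

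Reads of neighbouring genes could enter some of these values, since no strand setting is given. In the deposited coordinates, 11 of the 29 genes overlap a locus on the other strand, 10 of them by at most 116 bases. The exception is Rpt6, which shares 1463 bases with CG1801. CG1801 had 17.4% as many reads as Rpt6 and rose by 0.32 on the log2 scale. Rpt1 lies wholly inside CG17985 on the same strand, which had 6.02% as many reads as Rpt1 and was not called (log2 -0.16). The loci overlapping Rpn9 (CG10365), Rpn7 (CG34376), Rpt5 (Hrd3) and Prosbeta1 (CG8389) moved the other way, falling by 1.03, 0.15, 0.22 and 0.23. They had 39.0%, 83.6%, 51.8% and 16.5% as many reads as these subunit genes, and overlapped them by 3, 93, 3 and 21 bases. Aos1, which overlaps Prosalpha2 by 25 bases and had 18.1% as many reads, rose by 0.44, beside 0.34 for Prosalpha2 itself. The remaining overlapping loci were not called or not tested. Among them CG11980 had the largest share, 37.1% as many reads as Prosbeta3.

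The core and the regulatory particle were then set side by side. The median log2 fold change was 0.38 in the core (range 0.30 to 0.50) and 0.28 in the regulatory particle (0.12 to 0.44), a difference of 0.098. Of the 17 regulatory particle genes, 12 rose by less than the core gene with the smallest rise, and 5 (Rpt4, Rpn3, Rpt5, Rpn11 and Rpn9) lay within the core's range. Summed over the 12 core genes, levels were 1939, 2087 and 1981 CPM in treatment and 1529, 1551 and 1491 CPM in control. The regulatory particle sums were 2723, 2831 and 2720.3 and 2271, 2318 and 2222 CPM. For every read of the regulatory particle genes there were 0.712, 0.737 and 0.728 core reads in treatment, and the control values were 0.673, 0.669 and 0.671. These ratios of summed reads do not overlap between the sets, and they do not depend on how libraries are scaled against each other. The ratio of the median core level to the median regulatory particle level per transcript length, given below, did overlap. No test was made of these ratios, since they are scores over chosen genes. The difference of the medians was 0.089 without control replicate 2 and 0.12 without control replicate 3, the extremes when 1 library was left out.

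**Figure D3:**
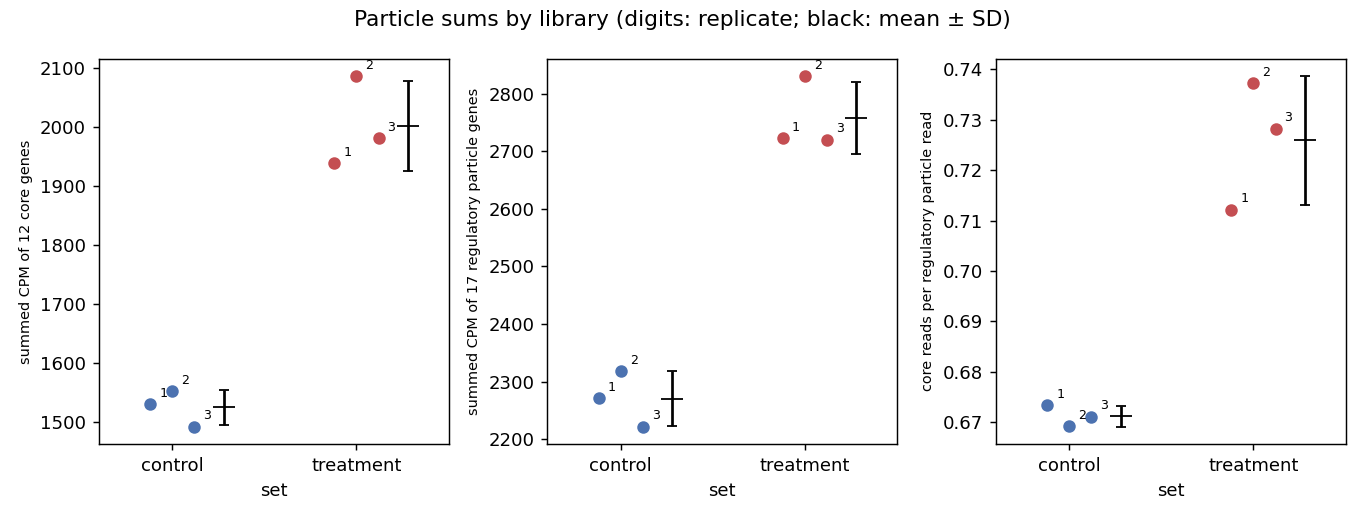
Summed CPM of the 12 core genes, of the 17 regulatory particle genes, and core reads per regulatory particle read, for each library (digits give the replicate; black marks are mean ± SD; the vertical axes do not start at 0). The 3 treatment libraries lie above the 3 control libraries in each panel, and the ratio is 0.712 to 0.737 against 0.669 to 0.673.

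Levels of different subunits were compared per transcript length, as RPKM, the CPM divided by transcript length in kilobases. In control the highest levels were those of Prosalpha2 (147 ± 2.95 RPKM) and Prosbeta2 (146 ± 5.44), which did not differ beyond their SD. The lowest were those of Rpn1 (48.6 ± 1.27) and Rpn2 (39.4 ± 1.21), which also have the longest transcripts, of 3041 and 3390 bases. The median core gene was at 127 to 130.5 RPKM in the control libraries and 159.8 to 174 in treatment. The median regulatory particle gene was at 77.4 to 81.1 RPKM in control and 98.7 to 105 in treatment. The ratio of the core median to the regulatory particle median was 1.59, 1.65 and 1.64 in treatment and 1.61, 1.61 and 1.64 in control. By this measure the sets overlapped, unlike the ratio of summed reads.

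The order of levels was nearly the same in the sets, with Prosbeta2, Prosalpha6 and Prosalpha2 the highest in treatment and Rpn5, Rpn1 and Rpn2 the lowest in both. Across the 29 genes, log2 length and log2 control RPKM were correlated at r = -0.852, a description over genes that share libraries. Length is the divisor of RPKM, so a negative value is in part built in, and nothing is drawn from it. Core transcripts are shorter than most regulatory particle transcripts, and the part of length in the difference of levels was not tested. The log2 fold change was not related to abundance in this way (r = 0.033 with log2 mean CPM over the same 29 genes).

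**Figure D4:**
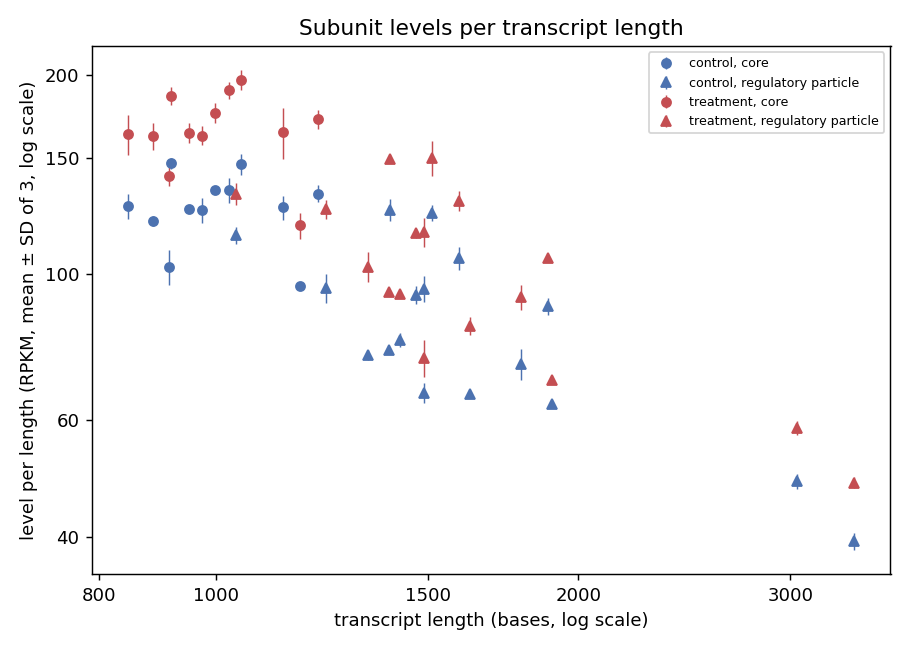
Level per length (RPKM, mean ± SD of 3 libraries, log axis) against transcript length (bases, log axis) for the 29 standard subunit genes, core as circles and regulatory particle as triangles. Levels fall with length in both sets, to 39.4 RPKM in control and 48.3 in treatment for Rpn2, the longest. Length is the divisor of RPKM, so such a fall is in part built in.

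The paralogues had almost no reads. Together the 12 had 81 reads over the 6 libraries, where the 29 standard genes had 354464. In 6 of them no read was listed in any library (Prosalpha4T2, Prosalpha6T, Prosbeta2R1, Prosbeta2R2, Prosbeta4R1 and Rpn12R). A count of 0 allows up to 3 reads, or 0.153 to 0.294 CPM per library. These limits cover counting error only. Rpt3R, a copy of the ATPase gene Rpt3, had the most of the 12, with read counts of 13, 10 and 10 in treatment against 4, 8 and 15 in control. It was the only one of them to pass the count filter, its sets overlapped, and it was not called (log2 0.29, SE 0.40; adjusted p = 0.575). Rpt4R had 4 reads in treatment and 7 in control, Prosalpha4T1 had 3 and 1, Prosalpha3T 2 and 1, Prosbeta5R1 2 and 0, and Rpt6R 1 and 0. Paralogues deposited under CG numbers are no members by symbol. Of these, Rpn13R had read counts of 36, 18 and 22 in treatment against 13, 19 and 18 in control, more than any of the 12. Its CPM did not overlap between the sets, with treatment higher, but it was not called (log2 0.60, SE 0.26; adjusted p = 0.0551). Prosbeta5R2 was listed at 0 in all libraries. Reads of near-identical copies may be lost or misassigned by the counting. Markers of testis, the tissue where such copies are known, were near 0, with aly, can and Mst84Da at 0 in all libraries. Their summed level over 5 genes was 0.594 to 0.784 CPM in treatment and 0.446 to 0.576 CPM in control. All midguts were from females, so low testis markers were fixed in advance, and nothing is drawn from them.

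Factors that assemble, cap or work on the proteasome mostly rose as well. Of 9 such genes 6 rose and 0 fell, with a median log2 fold change of 0.19. The share of all genes tested was 25.0% called higher and 24.1% lower, here and for the lists below. Uch-L5, a deubiquitinase docked on Rpn13, was at 43.2, 46.3 and 44.9 CPM in treatment and 29.5, 32.3 and 31.4 CPM in control (1.43-fold; adjusted p = 8.91e-08). Pomp, the chaperone on which the core is assembled, was at 101, 101 and 98.2 against 75.3, 74.2 and 73.7 CPM (1.35-fold; adjusted p = 5.89e-09). For both genes the sets were well apart. Usp14, the other deubiquitinase of the particle, rose from 95.6 ± 2.23 to 115 ± 4.54 CPM (log2 0.27; adjusted p = 2.45e-05), and Sem1, a small lid subunit counted in this list, rose 1.23-fold.

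REG, the fly PA28 gamma, which caps the core in the nucleus without the regulatory particle, was at 79.4 ± 2.28 against 70.1 ± 5.72 CPM (1.14-fold; adjusted p = 0.0073). Its call was lost without treatment replicate 1 (adjusted p = 0.0514) or control replicate 2 (0.0765). PI31, a proteasome-binding protein, was called at 0.16 although its sets overlapped. DESeq2 did not call it (adjusted p = 0.104), nor did edgeR without treatment replicate 1 (0.148) or 2 (0.0522) or control replicate 1 (0.133) or 3 (0.165). The values of ntc, CG12096 and CG8858 were -0.0017, -0.068 and 0.0037, with none of them called.

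Transcripts of the transcription factor gene cnc were lower in treatment, while those of the subunit genes were higher. In flies cnc, the homologue of mammalian NRF1 and NRF2, raises transcription of proteasome genes, with maf-S as its partner and Keap1 as an inhibitor. Of the 6 genes of this pathway, 3 fell and 2 rose, beside 24.1% of all genes tested called lower and 25.0% higher. The transcripts of cnc were at 407, 363 and 409 CPM in treatment and 536, 479.8 and 569 CPM in control, without overlap (log2 -0.43, SE 0.054; adjusted p = 5.51e-08). Those of maf-S fell by 0.35 (adjusted p = 1.54e-05), and those of Keap1 fell from 28.6 ± 0.904 to 13.6 ± 1.02 CPM (log2 -1.10, SE 0.078; adjusted p = 1.74e-13). The fall of these 3 genes held under each of the 12 alternatives, with cnc between -0.49 and -0.22.

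TER94, the p97 ATPase that extracts ubiquitinated proteins, was at 0.16 and Pngl, which removes sugar chains, at 0.15, a call lost in 5 of the 12 alternatives, including without treatment replicate 1 (adjusted p = 0.121). For rngo, the fly Ddi1, the value was 0.069 (adjusted p = 0.409). The median of the 6 genes was -0.14, and 0.067 with total-read scaling. Because the list holds cnc together with its inhibitor, this median gives no direction of pathway activity. The level of cnc is that of its most-read transcript, so its isoforms were not told apart. The protein activity of cnc was not measured, and its part in the subunit values was not tested.

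**Figure D5:**
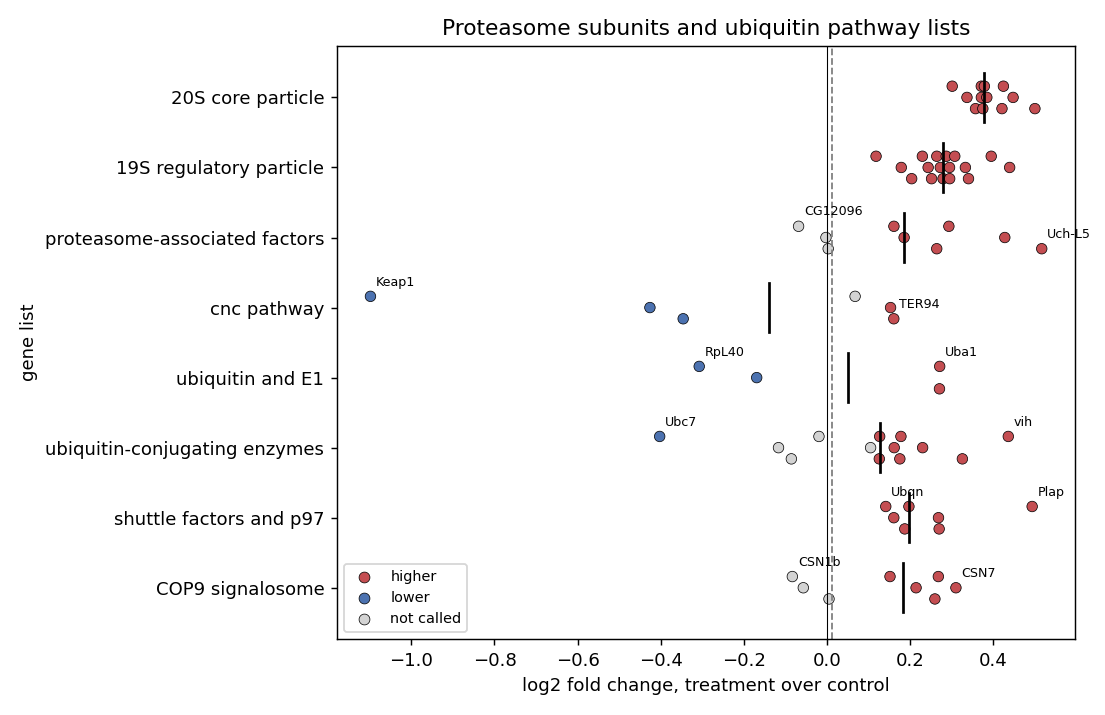
Log2 fold change of treatment over control for the tested genes of the core, the regulatory particle and 6 related lists; red genes were called higher, blue lower and grey not called, black bars are list medians and the dashed line the median of all genes tested. Both particles lie wholly right of 0, while the cnc list spans -1.10 (Keap1) to 0.16 (TER94).

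Genes upstream of the proteasome were divided. Of the genes for ubiquitin itself, Ubi-p63E rose 1.21-fold (adjusted p = 1.72e-05), while RpL40, which encodes ubiquitin fused to a ribosomal protein, fell by 0.31 (adjusted p = 1.07e-06). Ubi-p5E fell by 0.17 (adjusted p = 0.00278), but was at 0.036 with total-read scaling (adjusted p = 0.491). Uba1, the activating enzyme at the head of the cascade, was at 328, 324 and 328 against 268, 274 and 269.6 CPM (1.21-fold; adjusted p = 2.20e-06). These 4 were the measured genes of a list of 5, and RpS27A, merged with another locus, was not matched.

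Of 13 tested ubiquitin-conjugating enzymes 8 rose and 1 fell, with a median of 0.13, beside 25.0% of all genes tested called higher. Only 5 rose with DESeq2 and 4 without control replicate 2. The mitotic E2 gene vih was at 28.3 ± 0.785 against 20.9 ± 2.27 CPM (1.35-fold), Ubc10 rose 1.25-fold, and Ubc7, an E2 of degradation at the endoplasmic reticulum, fell by 0.40 (adjusted p = 2.17e-07). The shuttle and p97 genes, which carry substrates to the proteasome, rose in all 7 cases, with a median of 0.20. Of these, 6 rose with DESeq2 or without any single treatment replicate, and 5 without control replicate 1. Plap was at 62.7, 63.7 and 62.5 against 42.8, 48.4 and 42.5 CPM (1.41-fold; adjusted p = 4.85e-08), Npl4 rose 1.21-fold and Ufd1 1.21-fold.

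The COP9 signalosome is built on the same plan as the lid and removes Nedd8 from ubiquitin ligases. Of its 8 tested genes 5 rose and 0 fell, with a median of 0.18, beside 25.0% of all genes tested called higher. Only 3 of the 8 rose with DESeq2 or without treatment replicate 1. Fewer of all genes were called higher there too, 1599 with DESeq2 and 1829 without treatment replicate 1, against 2038 in the main fit. CSN7 (0.31; adjusted p = 0.000181), CSN4 (0.27) and CSN5 (0.26), the deneddylase like Rpn11, had the smallest adjusted p. The autophagy receptor gene ref(2)P, the fly p62, which binds ubiquitinated proteins, was at 1044, 1056 and 1049 CPM in treatment and 889.6, 920.3 and 886 CPM in control (1.17-fold; adjusted p = 6.42e-05).

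Markers of midgut cell types also differed between the sets. Beside the counts that follow, 25.0% of all genes tested were called higher and 24.1% lower. Markers of stem cells and enteroblasts rose in 5 of 6 cases and fell in 0, led by Sox21a (0.83), Delta (0.74) and Sox100B (0.59), with summed levels of 185 to 189 CPM in treatment and 119 to 124 in control. Enterocyte markers fell in 4 of 5 cases, led by mag (-2.09), with sums of 9003 to 9835 and 17579 to 18322 CPM. Visceral muscle markers fell in 6 of 7 cases, led by Act87E (-2.08), with sums of 948 to 991 and 1707 to 1829.9 CPM. The one that rose, Tm1, was at -0.30 when reads were summed over its transcripts. Enteroendocrine markers fell in 4 of 6 cases and none rose, with sums of 285 to 303 and 424 to 450.4 CPM. The part of these shifts in the subunit values was not tested.

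Markers of neighbouring tissues were also measured, again beside 25.0% of all genes tested called higher and 24.1% lower. Summed levels in treatment and control were 11.7 to 12.7 and 14.9 to 17.8 CPM for trachea (3 of 4 lower, 0 of 4 with total-read scaling and 1 with DESeq2 or without treatment or control replicate 1), 7.04 to 8.17 and 2.41 to 2.95 CPM for hemocytes and 0.933 to 1.53 and 0.357 to 1.02 CPM for ovary (0 of 1 called). Fat body markers summed to 47.8 to 57.6 and 90.2 to 100.3 CPM, most of it FASN1, a fatty acid synthase gene, which fell from 87.0 ± 5.92 to 40.6 ± 3.56 CPM (log2 -1.09; adjusted p = 1.70e-15). Of the other fat body markers Yp1 rose (log2 0.70), and Fbp1 and Lsp2 had at most 4 reads in a library. Among the 5 hemocyte markers lz (3.82) and PPO1 (2.48), both genes of crystal cells, rose and carried the higher sum. Pxn was at -0.29 and not called, and Hml, too low to test, was at 5, 1 and 0 reads in treatment against 6, 7 and 6 in control. NimC1 had at most 1 read in a library. The part of these markers in the subunit values was not tested.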

How the data were processed

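Pooled posterior midguts of 2 ages were sequenced as poly(A) RNA. The authors deposited raw read counts per transcript in 6 columns (treat1 to treat3, ctrl1 to ctrl3), per the file headers, with transcript coordinates and lengths. They also deposited a gene table of log2 fold changes with standard errors and adjusted p-values. DESeq is named in the submitters' processing notes. For aligner, genome build, strand setting and counting rules: not given in the sources used here.

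Of 24047 transcripts 145 predicted ones were left out, and each locus was represented by its most-read transcript, which gave 13816 loci (6 more were dropped because their symbol was taken). RefSeq symbols were assigned to 12825 by gene ID. Genes passing edgeR's filterByExpr (count minimum 10) were fitted with edgeR 4.0.16 in R 4.3.3, using TMM scaling. Treatment was set against control by its quasi-likelihood test, and p-values were adjusted by Benjamini-Hochberg over all 8137 genes. The adjusted p threshold was 0.05, and 3 libraries per set entered. CPM use TMM-scaled library sizes, and RPKM divide these by transcript length. The fit was also run on counts simulated from its own levels and spread, with 200 genes changed. Far more genes were called in the real data, so that run does not cover their setting. Alternatives were total-read and RLE scaling, DESeq2 1.42.0, no count filter, reads summed over transcripts, a replicate block and leaving out each library.

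Members and gene lists were chosen with earlier results of these data known. Named genes are the catalytic subunits, per particle the 3 smallest adjusted p and the extreme folds, subunits not called, paralogues with reads, up to 3 called genes per list, and cnc, REG and ref(2)P. Other subunits and list genes were named after their values were seen.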

Additional observations from a re-analysis of the deposited data

How the results depend on the processing

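The count of subunit genes called higher was 28 or 29 under every alternative, and 0 were called lower in any of them. With total-read scaling the median log2 fold change was 0.58 in the core and 0.48 in the regulatory particle, and 4126 of all genes tested were called higher and 1076 lower, against 2038 and 1962 with TMM. That scaling moves the median of all genes to 0.22, and relative to it the subunits' median was 0.319, beside 0.320 with TMM. A change of scaling moves all genes by nearly the same amount, so these values lie close by construction. With the same scaling Ubi-p5E was at 0.036, and with reads summed over transcripts Tm1 was at -0.30. For these, the cause was not tested. Leaving out 1 library gave 28 to 29 subunit genes higher, a core median of 0.36 to 0.41, a regulatory particle median of 0.25 to 0.30, and a difference of 0.089 to 0.12. With a replicate block 29 subunit genes were called higher, and 2103 genes in all higher and 2008 lower. Deviations of same-numbered libraries from the means of their sets were correlated at r = 0.012, 0.085 and 0.016. Such deviations are constrained within each set, so these values cannot exclude a pairing, and the labels give none. The largest r of any treatment and control pair was the 0.085 of a same-numbered pair, while treatment replicate 1 correlated best with control replicate 3 (r = 0.074). Of the paralogues, only 1 passed the count filter and could be tested.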
